A study of Chlorocebus sabaeus with 10 samples.

Results

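The transcripts described here encode complement and coagulation factors, the plasma proteases, pore-forming proteins and inhibitors that the liver secretes. Members were the rows of the deposited table of estimated transcript counts whose gene symbol was 1 of 45 listed symbols, and for a gene with several transcripts the one with the highest mean count was taken. Of the 45 listed genes, 41 were analysed out of 23352 gene symbols and 28078 transcripts in the table, while C2, CFI, MASP1 and SERPINC1 were not analysed here. Every one of the 41 had at least 10 counts in each animal, so all 41 passed the filter on low counts that left 7948 transcripts for testing.

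RNA-Seq was performed on flash frozen liver of 10 female, age-matched vervet monkeys (Chlorocebus sabaeus, an Old World primate), each represented by 1 stranded library of polyadenylated RNA. All 10 had eaten chow before the study, and 5 were then given a high fructose (HFr) diet while 5 stayed on chow for the same number of weeks. The diet was the only labelled difference between the groups, and the study asked how a short exposure to HFr alters the liver before obesity or diabetes develops. Liver tissue was measured in bulk, so fewer cells of a type and less RNA in each cell cannot be told apart. The p-values set the diet difference against the spread between these 10 animals at 1 time.

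Complement is a cascade of plasma proteins. The classical and lectin pathways start it on antibody or microbial sugars, the alternative pathway amplifies it, all 3 converge on cleavage of C3, and the terminal components then assemble a pore in the target membrane. Coagulation is a parallel cascade in which serine proteases, several of them dependent on vitamin K, generate thrombin, thrombin turns fibrinogen into fibrin, and plasmin dissolves the clot. Hepatocytes make most of these proteins, and a subset that includes fibrinogen, C3 and factor B belongs to the acute phase genes that inflammatory cytokines induce in liver.

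Total estimated counts ranged from 2977282 to 4992505 per animal, of which 864571 to 2657103 fell on nuclear transcripts. Mitochondrial transcripts took 55.5% ± 11.8 (SD, n = 5) of the counts on HFr and 55.4% ± 16.5 (SD, n = 5) on chow, and the two-sided exact permutation test gave p = 0.992. All 8 hepatocyte markers were measured and none differed between the diets at an unadjusted p under 0.05 in edgeR, while markers of skeletal muscle summed to at most 2.74 normalized counts in any animal and MYH2, CKM and ADIPOQ were at 0 in all of them. Stellate cell and fibroblast markers summed to 224 to 407 normalized counts on HFr and to 180 to 827 on chow, with the 2 highest sums in chow 1 (827) and chow 5 (686). ACTA2, a smooth muscle actin listed with the stellate cell markers, was the 1 cell type marker with an unadjusted p under 0.05 in edgeR (log2 fold change -1.57, edgeR p = 0.00646, exact permutation p = 0.0476). Its values rest on 6 to 75 counts per animal, its adjusted p in edgeR was 0.9996, and 4.29% of all tested transcripts had an unadjusted p under 0.05. The hepatocyte marker TF, the transferrin gene, had an exact permutation p of 0.0397 and an edgeR p of 0.1553, at 5731 ± 328 on HFr and 4447 ± 1102 on chow (SD, n = 5 each).

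The members together took 7.43% ± 1.03 (SD, n = 5) of the nuclear counts on HFr and 6.95% ± 1.13 (SD, n = 5) on chow. By animal the share ran from 5.6% in chow 1 to 8.94% in HFr 5. C3 and the 3 fibrinogen chains made up between 35.2% and 50.3% of the member counts. Ranked by counts, which depend on transcript length as well as abundance, 10 members were among the 50 highest of the 7933 nuclear transcripts tested and 32 were among the highest 500.

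No member passed the test between the diets. With edgeR, 0 of 41 had an unadjusted p under 0.05, against 4.29% of all tested transcripts (341 of 7948), and no transcript of any kind had an adjusted p under 0.05 (0.0%). DESeq2 likewise gave 0 of 41 members an unadjusted p under 0.05, against 4.16% of 7940 transcripts, and 2 transcripts an adjusted p under 0.05 (0.0252%), neither a member. The smallest member p was 0.1745 in edgeR and 0.1706 in DESeq2. In no member did the 5 HFr animals lie wholly above or wholly below the 5 chow animals, a separation seen in 43 of the 7948 transcripts (0.541%). Single members were also compared by two-sided exact permutation over every assignment of 5 of the 10 animals to a diet, where the smallest possible p is 0.00794 and the smallest seen among members was 0.1032.

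The fitted differences were small. The log2 fold change, HFr minus chow, ranged from -0.39 for C7 to 0.36 for F9, with a median of 0.08 over the 41 members beside -0.0007 over all tested transcripts. It was above 0 in 27 members and below 0 in 14, which is 65.9% above 0 where 49.8% of all transcripts were. The count above 0 rested on single animals, being 16 without chow 1, 19 without HFr 5, 20 without chow 5 and 33 without HFr 2, and the median was -0.05 without chow 1. For 37 of the 41 members the 95% interval lay within -1 to 1 on the log2 scale, that is, within a doubling or halving, and for 26 it lay within -0.7 to 0.7. The median standard error was 0.24. The plot of fold changes by role sets each member beside its interval.

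**Figure D1:**
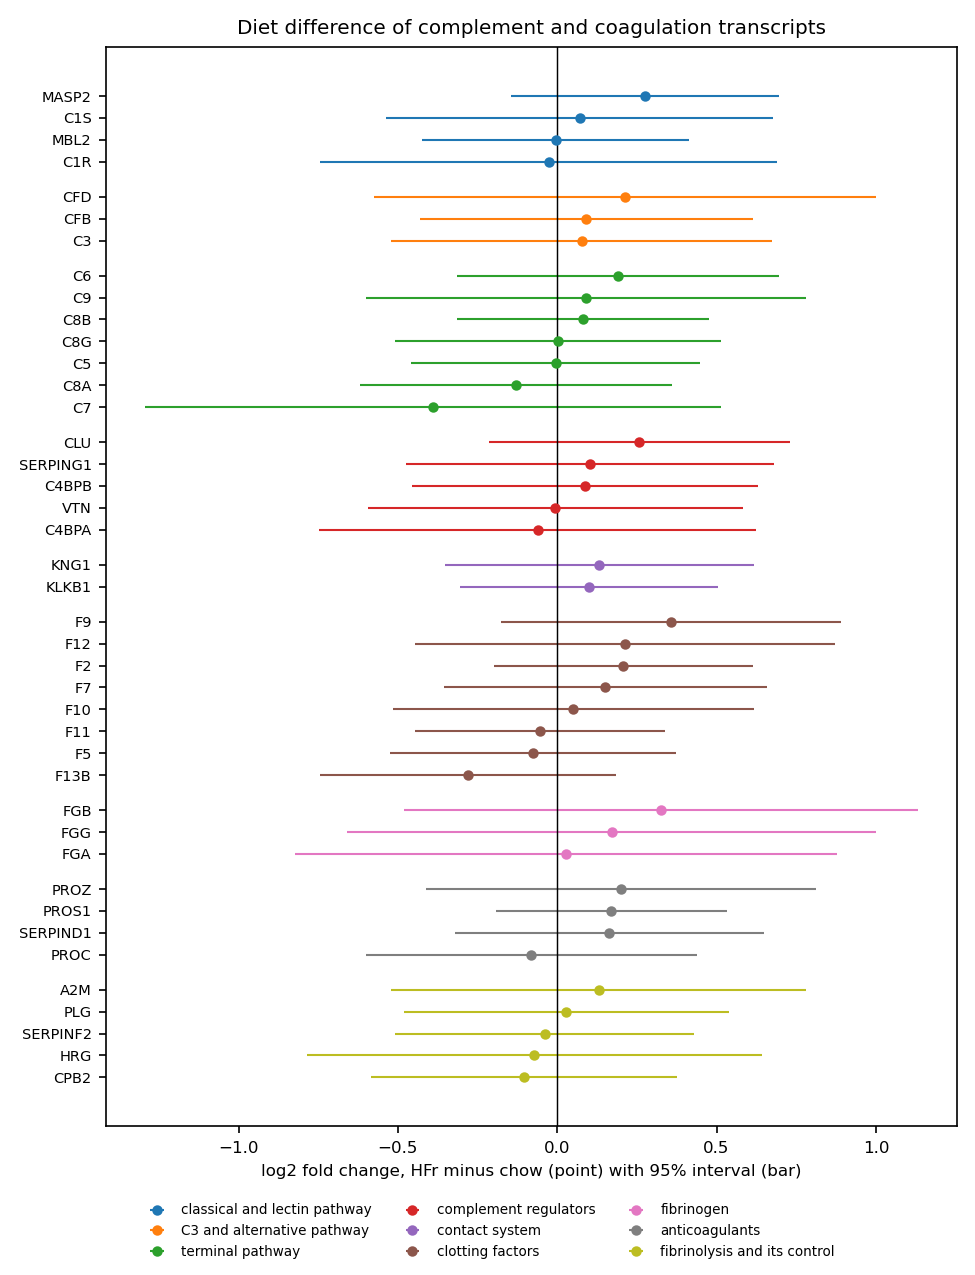
Log2 fold change between the diets (horizontal axis, HFr minus chow) of the 41 members, grouped by role, with points for the edgeR estimate and bars for the 95% interval (n = 5 animals per diet). Every bar crosses 0, the points lie between -0.39 (C7) and 0.36 (F9), and the widest bars belong to C7 and the fibrinogen chains.

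Recognition and first proteolytic steps come first. Of the 6 listed genes of the classical and lectin pathways 4 were tested, 2 of them above 0 and 2 below, with a median log2 fold change of 0.03. MBL2 (chromosome 9, 78389947 to 78396080) encodes mannose-binding lectin, which recognises microbial sugars. Its normalized counts, given throughout as CPM (counts scaled to a fixed library total) after TMM scaling, were 602, 592, 673, 530 and 569 in HFr animals 1 to 5 and 504, 513, 530, 826 and 603 in chow animals 1 to 5. The diets overlapped fully, with the highest value in chow 4 and the means at 593 ± 52.6 on HFr and 595 ± 135 on chow (SD, n = 5 each), and the log2 fold change was -0.01 (SE 0.20). MASP2 (chromosome 20, 120740537 to 120751088) encodes the lectin-associated protease that cleaves C4 and C2. It stood at 163, 113, 192, 133 and 152 on HFr and at 108, 160, 116, 138 and 99.3 on chow. Although 4 of 5 HFr animals exceeded the chow mean, chow 2 lay above 3 of the HFr animals, and the log2 fold change of 0.28 (SE 0.20) did not pass the test (edgeR, p = 0.1806, exact permutation p = 0.1825). The C1 proteases C1R and C1S lay between 75.4 and 254 and between 57.8 and 153 normalized counts, with log2 fold changes of -0.03 and 0.07.

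C3 (chromosome 6, 6249932 to 6289187), on which all pathways converge, was the complement gene with the highest counts. Its values were 5543, 4542, 6041, 5986 and 7874 on HFr and 3511, 7004, 6112, 7358 and 4449 on chow. The highest value was in HFr 5 and the lowest in chow 1, with wide overlap between them, and the means of 5997 ± 1209 on HFr and 5687 ± 1656 on chow (SD, n = 5 each) gave a log2 fold change of 0.08 (SE 0.28, 95% interval -0.52 to 0.68). CFB, the protease subunit of the alternative C3 convertase, had 3 transcripts annotated under its symbol. The 1 used here (40069909 to 40075700) carried 94.9% to 97.6% of the counts under that symbol in each animal. Its log2 fold change was 0.09 (SE 0.24). CFB-203, the 1 other that was tested, gave -0.06 (SE 0.34), but it is annotated at 40076567 to 40094208, outside the transcript used. In another assembly C2 is listed next to CFB. Whether CFB-203 is a form of CFB or a transcript of C2 was not tested. The CFB transcript used here overlaps NELFE on the opposite strand along 5791 bases, where NELFE had a mean of 43.5 counts. CFD, the protease that activates factor B, rested on only 20 to 72 counts per animal. It lay between 6.06 and 16.1 normalized counts on HFr and between 4.38 and 16.5 on chow, with a log2 fold change of 0.21 (SE 0.37).

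The terminal pathway, in which C5 to C9 build the membrane pore, had all 7 listed genes tested, 4 above 0 and 3 below, with a median log2 fold change of 0.003. C9 (chromosome 4, 38082457 to 38164165) encodes the subunit that polymerises into the pore wall, and was the highest of the 7 by counts. It measured 1129, 726, 1066, 670 and 1663 on HFr and 497, 682, 1445, 1111 and 1197 on chow. HFr 5 was the highest and chow 1 the lowest, the diets overlapped, and the log2 fold change was 0.09 (SE 0.32). C6 (chromosome 4, 39912155 to 39983635), which joins the complex after C5b, gave 699, 436, 765, 587 and 946 on HFr and 438, 540, 756, 632 and 640 on chow. Its extremes were both HFr animals, and the log2 fold change was 0.19 (SE 0.24, edgeR p = 0.4303, exact permutation p = 0.4683). The remaining subunits C5, C8A, C8B and C8G had log2 fold changes between -0.13 (C8A) and 0.08 (C8B).

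C7 (chromosome 4, 39671551 to 39753627), which anchors the growing complex in the membrane, differed from the rest in its spread. It stood at 274, 234, 236, 158 and 165 on HFr and at 506, 101, 140, 141 and 512 on chow. Chow 1 and chow 5 were far above all other animals, while the other 3 chow animals were below every HFr animal, so that no HFr value exceeded the chow mean of 280 ± 210 (SD, n = 5). The log2 fold change was -0.39 (SE 0.42, edgeR p = 0.3720, exact permutation p = 0.8810), and it was -0.06 without chow 1 and -0.06 without chow 5. Its SD within diets on the log2 scale, 0.83, was the highest of the 41 members, whose median was 0.38 beside 0.36 over all tested transcripts.

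Regulators keep complement off host surfaces or clear its products. Of 6 listed, 5 were tested, 3 above 0 and 2 below, with a median of 0.09. CLU (chromosome 8, 25703257 to 25721790) encodes clusterin, a chaperone that also binds the forming pore. Its values were 1088, 1082, 1109, 1112 and 1202 on HFr and 543, 1144, 925, 1111 and 957 on chow. The HFr animals were close together and all 5 exceeded the chow mean of 936 ± 239 (SD, n = 5), but chow 2 and chow 4 lay among them, and the log2 fold change of 0.26 (SE 0.22) did not pass the test (edgeR, p = 0.2629, exact permutation p = 0.1111). It was 0.11 without chow 1, the animal with the lowest value. VTN (chromosome 16, 22133138 to 22136816), encoding vitronectin, which blocks membrane insertion of the complex, gave 1701, 1713, 1974, 2337 and 2698 on HFr and 1336, 2883, 2028, 2818 and 1399 on chow. The chow animals bracketed the HFr animals on both sides, and the log2 fold change was -0.01 (SE 0.27). SERPING1, the C1 inhibitor, and the C4b-binding protein chains C4BPA and C4BPB had log2 fold changes of 0.10, -0.06 and 0.09.

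Both genes grouped here under the contact system, which starts clotting on charged surfaces and releases bradykinin, were above 0. F12, which activates prekallikrein, was counted with the clotting factors instead, as was F11 (log2 fold changes 0.21 and -0.05). KNG1 (chromosome 15, 81002823 to 81029354), the kininogen from which bradykinin is cut, measured 456, 417, 623, 531 and 625 on HFr and 308, 530, 663, 489 and 429 on chow. The lowest and the highest animals were both on chow, and the log2 fold change was 0.13 (SE 0.23). KLKB1, the prekallikrein gene, had a log2 fold change of 0.10 (SE 0.19).

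Among the 8 clotting factors, 5 were above 0 and 3 below, with a median of 0.10. F9 (chromosome X, 114618639 to 114651366), the vitamin K-dependent factor deficient in hemophilia B, had the largest positive fold change and the smallest p of the members. It gave 170, 183, 140, 133 and 304 on HFr and 101, 141, 197, 155 and 132 on chow. One animal, HFr 5, stood well above the other 9, whose values were interleaved. The log2 fold change of 0.36 (SE 0.25, 95% interval -0.18 to 0.89, edgeR p = 0.1745, exact permutation p = 0.2698) was 0.11 without HFr 5. F2 (chromosome 1, 18588857 to 18609205), the prothrombin gene and the highest of these factors by counts, stood at 748, 616, 735, 638 and 656 on HFr and at 438, 613, 722, 616 and 549 on chow. All 5 HFr animals exceeded the chow mean of 587 ± 104 (SD, n = 5), with chow 3 above 3 of them, and the log2 fold change was 0.21 (SE 0.19, edgeR p = 0.2911, exact permutation p = 0.1032). F13B (chromosome 25, 32357993 to 32389974), the carrier subunit of the fibrin cross-linking enzyme, was 47.1, 67.7, 77.1, 81.1 and 97.7 on HFr and 82.7, 88.5, 128, 76.3 and 74.9 on chow. HFr 1 was the lowest and chow 3 the highest, and the log2 fold change of -0.28 (SE 0.22) did not pass the test (edgeR, p = 0.2160, exact permutation p = 0.2698). The other 5 clotting factors had log2 fold changes from -0.07 (F5) to 0.21 (F12).

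Fibrinogen is assembled from 3 chains encoded side by side on chromosome 7 by FGB (101106483 to 101114663), FGA (101125791 to 101134406) and FGG (101148058 to 101157112). FGB gave 4643, 2679, 4240, 1816 and 5838 on HFr and 1729, 1917, 5595, 2864 and 3224 on chow. FGA gave 2914, 2821, 3256, 1342 and 4699 on HFr and 1859, 2237, 6460, 2070 and 2132 on chow, and FGG gave 2114, 1350, 1641, 644 and 2011 on HFr and 798, 870, 2826, 953 and 1446 on chow. In all 3 chains HFr 4 was among the 2 lowest animals and HFr 5 and chow 3 were among the 3 highest, so that each diet held both high and low animals. The log2 fold changes were 0.33 (SE 0.38) for FGB, 0.03 (SE 0.40) for FGA and 0.17 (SE 0.39) for FGG, and without chow 3 they were 0.66, 0.53 and 0.61, with none passing the test. The plot of fibrinogen, C3, C9 and clusterin shows these values by animal.

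**Figure D2:**
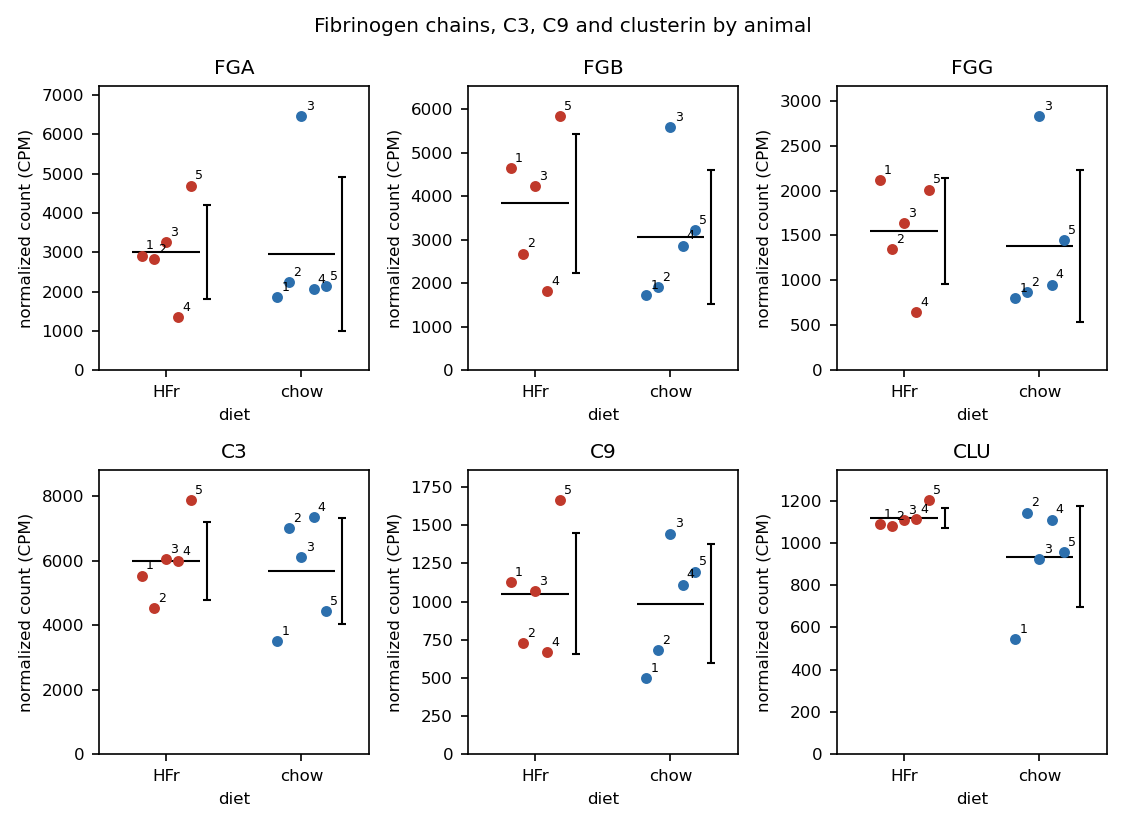
Normalized counts (vertical axis, CPM after TMM scaling) of the fibrinogen chains FGA, FGB and FGG and of C3, C9 and CLU in each animal, with replicate numbers beside the points, a line at the mean and a bar for the SD of 5 animals. Chow 3 stands at the top of the chow animals for the 3 chains (6460 for FGA), HFr 4 is at the bottom of the HFr animals, and the diets overlap in every panel.

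The chains varied together from animal to animal. Across the 10 animals, on log2(normalized count + 1), r was 0.945 for FGB with FGG, 0.909 for FGA with FGG and 0.866 for FGA with FGB (rho 0.939, 0.903 and 0.867), with adjusted permutation p of 0.00099, 0.00159 and 0.00235 over the 11 pairs described below. Leaving out the 2 animals farthest from the median gave 0.934, 0.803 and 0.838. The balance between the chains was compared as log2 ratios, and FGB over FGA was 0.35 ± 0.27 on HFr and 0.11 ± 0.40 on chow, while FGG over FGA was -0.96 ± 0.29 and -1.09 ± 0.31 (SD, n = 5 each). Neither ratio passed the diet test in the 2 exact permutation tests (p = 0.333 and 0.460, both 0.460 after adjustment).

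Of the 5 listed anticoagulants 4 were tested, 3 above 0 and 1 below, with a median of 0.17. PROS1 (chromosome 22, 86728339 to 86840357) encodes protein S, the cofactor of activated protein C, and had the smallest spread within diets of all members (SD 0.20 on the log2 scale). It was 108, 143, 105, 102 and 134 on HFr and 94.4, 93.7, 115, 101 and 123 on chow. HFr 2 and HFr 5 were the 2 highest animals and the other 3 HFr animals lay among the chow animals, with a log2 fold change of 0.17 (SE 0.17, edgeR p = 0.3332, exact permutation p = 0.2460). PROC (chromosome 10, 2789277 to 2799532), the protein C gene, gave 529, 382, 588, 898 and 517 on HFr and 553, 755, 494, 750 and 531 on chow. Only HFr 4 of the HFr animals exceeded the chow mean of 616 ± 126 (SD, n = 5), and the log2 fold change was -0.08 (SE 0.24). SERPIND1 (chromosome 19, 4715806 to 4726112) encodes heparin cofactor II, a thrombin inhibitor, and measured 324, 429, 421, 478 and 558 on HFr and 265, 480, 493, 434 and 301 on chow. HFr 5 was highest and chow 1 lowest, with a log2 fold change of 0.16 (SE 0.23, edgeR p = 0.4831, exact permutation p = 0.4206). This gene lies within PI4KA on the opposite strand, where PI4KA had a mean of 50.7 counts. PROZ, the cofactor of the factor Xa inhibitor encoded by SERPINA10, had a log2 fold change of 0.20 (SE 0.29), and its annotated span overlaps F10 by 70 bases on the same strand.

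In fibrinolysis and its control, 2 genes were above 0 and 3 below, with a median of -0.04. HRG (chromosome 15, 2753810 to 2766479), the histidine-rich glycoprotein that binds plasminogen and heparin, stood at 1122, 635, 2033, 1753 and 2253 on HFr and at 1139, 1938, 2373, 1242 and 1506 on chow. HFr 2 was by far the lowest and chow 3 the highest, and the log2 fold change was -0.07 (SE 0.33). A2M, the broad protease inhibitor alpha-2-macroglobulin, ranged from 217 in chow 1 to 647 in chow 3, with a log2 fold change of 0.13 (SE 0.30). PLG, the plasminogen gene, gave 0.03 (SE 0.24), SERPINF2, the plasmin inhibitor, -0.04 (SE 0.22) and CPB2, which encodes a carboxypeptidase that slows clot lysis, -0.10 (SE 0.22).

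The same genes were also counted in 2 groupings that cross these roles. Of the 7 vitamin K-dependent members, 6 were above 0 and PROC was below, with a median log2 fold change of 0.17. Of the 8 acute phase members, 7 were above 0 and C4BPA was below, with a median of 0.09. None in either grouping had an unadjusted p under 0.05 in edgeR, where the background was the 4.29% given above, or in DESeq2, where it was 4.16%.

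The spread between animals of 1 diet had its own pattern. Chow 1 had the lowest value for 21 of the 41 members, with a median deviation of -0.53 from the gene's mean over 10 animals on log2(normalized count + 1). The hepatocyte markers deviated by a median of -0.52 in that animal, and its stellate and fibroblast marker sum was the highest of the 10. At the other end, chow 3 held the highest value for 13 members and HFr 5 for 11, with median deviations of 0.33 and 0.31, and the hepatocyte markers deviated there by medians of 0.36 and 0.41. The median over all tested transcripts deviated by no more than 0.02 in any of the 10 animals. The map of all members by animal shows this as a pale blue chow 1 column and 2 mostly red columns.

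**Figure D3:**
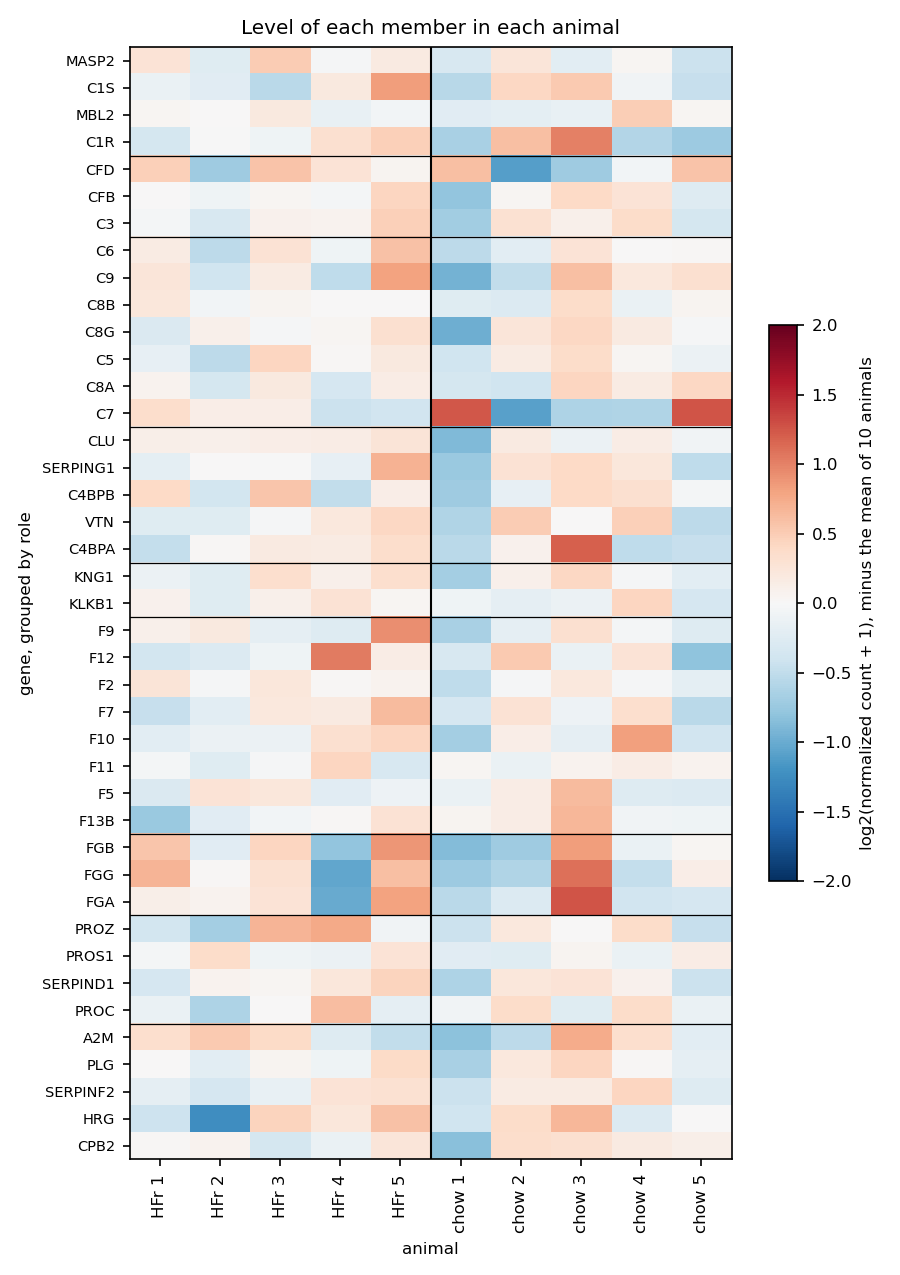
Colour map of each member (rows, grouped by role) in each animal (columns, HFr left of the vertical line and chow right), coloured by log2(normalized count + 1) minus the gene's mean over 10 animals. Chow 1 is lowest for 21 of 41 members, HFr 5 and chow 3 are highest for 11 and 13, and the C7 row runs opposite to most others in chow 1.

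Members moved together more than transcripts in general did. Over the 820 pairs of members the median r across the 10 animals was 0.364 and 79.9% of pairs were positive, beside -0.001 and 49.9% over all pairs of tested transcripts. These pairs share animals and libraries and are given as a description. The hepatocyte markers deviated in the same directions as the members in chow 1, chow 3 and HFr 5, as given above. Whether joint movement is particular to the members was not tested. PLG followed the other 40 members most closely (median r 0.673), followed by CFB (0.613) and KNG1 (0.610). Only 3 members had a negative median, namely C7 (-0.508), CFD (-0.283) and F11 (-0.112).

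Neighbouring genes on a chromosome were 11 of the pairs, taken as members less than 500000 bases apart, and their median r was 0.682. Most of the 11 came from the fibrinogen genes and from F7, F10 and PROZ, so the median largely reflects those loci. Besides the fibrinogen chains, C1R with C1S (r = 0.811, rho = 0.794) and F7 with F10 (r = 0.792, rho = 0.867) had an adjusted permutation p under 0.05, both at 0.0123 for r. Without the 2 animals farthest from the median, r was 0.760 and 0.758. C8A and C8B, which are read in opposite directions 8301 bases apart, reached it by rank (rho = 0.758, adjusted permutation p = 0.0273) and not by r (0.682, adjusted permutation p = 0.0556). C6 and C7, which lie 158528 bases apart, did not pass (r = -0.278, permutation p = 0.436), and C4BPA with C4BPB did not either (r = 0.269, permutation p = 0.465). The remaining pairs, F7 with PROZ, F10 with PROZ and F11 with KLKB1, did not pass by r or by rank. Their r was 0.661, 0.562 and 0.484 (adjusted permutation p = 0.0647, 0.125 and 0.189).

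Members were set beside the mean log2 level of the 8 tested hepatocyte markers and of the 6 tested stellate and fibroblast markers, in 82 relations over the 10 animals with p-values adjusted across all 82. With the hepatocyte markers r was positive for 34 of 41 members (median 0.470), and 10 had an adjusted permutation p under 0.05 for r, namely C8G, C1R, SERPING1, PLG, F9, C4BPA, CPB2, SERPIND1, CFB and C1S. Of these, PLG, CPB2 and CFB did not pass by rank (adjusted permutation p = 0.148, 0.172 and 0.172 for rho). The highest r of the 10 was that of C8G (r = 0.835, rho = 0.806, adjusted permutation p = 0.0264 and 0.0395), and without the 2 farthest animals it was 0.563. Without those 2 animals, chow 1 and chow 3, r was positive for 25 of 41 members with a median of 0.143, and it was 0.376 to 0.735 for the 10, so the relation over the members rested largely on those animals. With the stellate and fibroblast markers r was negative for most members (median -0.541), 11 of them with an adjusted permutation p under 0.05 for r, and C7 was the single positive one among those that passed (r = 0.866, rho = 0.818, adjusted permutation p = 0.0264 and 0.0395). Of the 11, C4BPA did not pass by rank (adjusted permutation p = 0.0666 for rho). Without the 2 farthest animals, chow 1 and chow 5, the median was -0.356 and the 11 negative values lay between -0.805 and -0.426, with C7 at 0.560. Counts of a library are shares of its total, so a higher share for one cell type lowers that of another. How far cell makeup contributes to the members' levels was not tested. For the mitochondrial share of counts, 0 of 41 members had an adjusted permutation p under 0.05, and 3 (CFD, C1R and MBL2) had an unadjusted one. All of these relations were described for the members alone, with no share over all tested transcripts beside them. Whether the counts of members that passed are particular to the members was not tested.

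C7 was compared with 4 individual genes of connective tissue, taken after values were seen from the 6 tested stellate and fibroblast markers. Its r across the 10 animals was 0.958 with DCN, the decorin proteoglycan gene, 0.924 with LUM, which encodes the related lumican, 0.845 with the collagen gene COL1A2 and 0.659 with PDGFRB, a receptor of stellate cells and pericytes. The adjusted permutation p over these 4 relations was 0.00024, 0.00092, 0.0028 and 0.0363 for r, and 0.00092, 0.0148, 0.0148 and 0.191 for rho (0.939, 0.806, 0.782 and 0.455). C7 and the 4 genes were picked from these same data, and the adjustment does not cover that choice. These p-values are therefore given as a description and are no independent test of a relation. Chow 1 and chow 5 formed a separate high pair, and over 8 animals, without the 2 farthest from the median, r was 0.892, 0.786, 0.862 and 0.361. Decorin stood at 501 in chow 1 and 370 in chow 5 and at 105 to 250 in the other 8 animals, and did not pass the diet test (log2 fold change -0.43, SE 0.41, edgeR p = 0.3191, exact permutation p = 0.7619). The other tested markers, COL1A1 and ACTA2, were not among these relations. ACTA2 was highest in chow 5 (32.2) but stood at 16.4 in chow 2 and 16.7 in chow 4, where C7 was 101 and 141. COL1A1 was highest in HFr 2 (12.6), where C7 was 234, and stood at 9.60 in chow 1 and 8.73 in chow 5.

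**Figure D4:**
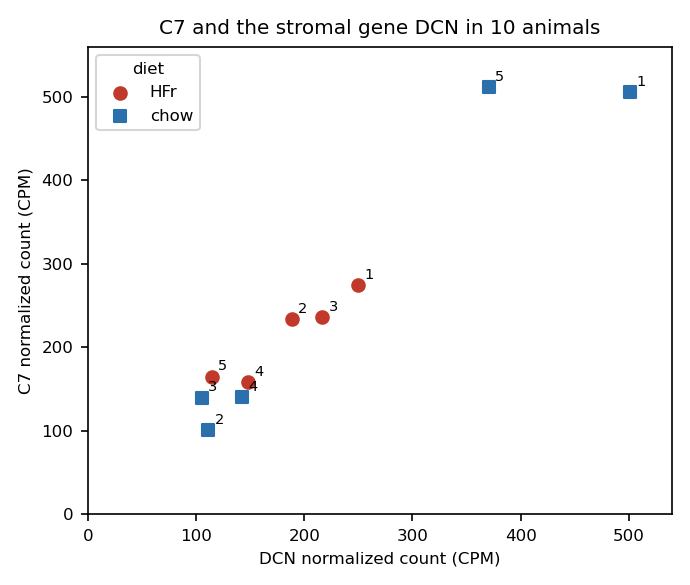
C7 (vertical axis) against decorin, DCN (horizontal axis), both as normalized counts (CPM), in 10 animals, with circles for HFr, squares for chow and replicate numbers beside them. Chow 1 and chow 5 lie apart at the upper right with C7 at 506 and 512, and the other 8 animals run along the same direction between 101 and 274.

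The acute phase members were compared with CRP, the C-reactive protein gene that serves as a marker of that response. CRP ranged over 15.8-fold between animals, from 147 in HFr 2 to 2320 in chow 3, with HFr 5 second at 1476, and did not pass the diet test (log2 fold change -0.11, SE 0.61, edgeR p = 0.8594, exact permutation p = 0.9048). Of the 8 relations, 4 had an adjusted permutation p under 0.05 for r, namely FGB (r = 0.762, rho = 0.855), C9 (0.754 and 0.758), FGA (0.715 and 0.794) and FGG (0.70 and 0.806). Their adjusted permutation p was 0.0486, 0.0486, 0.0492 and 0.0492 for r, and r without the 2 farthest animals was 0.860, 0.769, 0.888 and 0.848. CFB passed by rank alone (r = 0.646, adjusted permutation p = 0.0664, rho = 0.745, adjusted permutation p = 0.0276), and C3, SERPING1 and C4BPA did not pass by either measure (r between 0.546 and 0.579). Chow 3 and HFr 5, the 2 animals highest for CRP, also held the highest value for 13 and 11 of the 41 members. The hepatocyte markers were high in these 2 animals as well (median deviations 0.36 and 0.41). HFr 1, next for CRP at 1158, held the highest value for 1 member, and its median member deviation was -0.03. The relations were described for these 8 members alone, so whether they are particular to acute phase members was not tested.

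Genes that act with the members were taken from lists of initiators, regulators, receptors, partners of the anticoagulants, fibrinolytic enzymes, the vitamin K cycle, factor export and thrombin receptors. Of the 53 such genes reported here 45 were analysed and 27 passed the filter on low counts, 17 of them above 0 and 10 below. Unadjusted p was under 0.05 for 2 of the 27 (7.41%, against 4.29% of all transcripts), 1 higher on HFr (background 2.06%) and 1 lower (background 2.23%), and neither passed after adjustment in edgeR, where the adjusted p of both was 0.9996.

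TFPI (chromosome 10, 73002522 to 73105859) encodes tissue factor pathway inhibitor, which shuts off the factor VIIa complex that starts clotting. It was 68.6, 58.1, 67.8, 62.9 and 82.3 on HFr and 72.0, 81.5, 119, 87.4 and 121 on chow. HFr 5 lay above 2 chow animals and the other HFr animals were below all 5, and the log2 fold change was -0.50 (SE 0.19, edgeR p = 0.0189, exact permutation p = 0.0238). The edgeR p was 0.0546 without chow 3 and 0.0541 without chow 5, and it was 0.185 with scaling by library size alone.

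ITGAX (chromosome 5, 28058456 to 28086839), the alpha chain of complement receptor 4 on macrophages and dendritic cells, gave 4.52, 7.40, 6.05, 4.89 and 7.32 on HFr and 4.11, 3.72, 2.75, 0.505 and 4.14 on chow. The diets did not overlap, as in 17 of the 7948 transcripts (0.214%) with all HFr animals above, although the values rest on 1 to 37 counts per animal. The log2 fold change was 0.94 (SE 0.35, edgeR p = 0.0166), the exact permutation p was the smallest possible, 0.00794, and the edgeR p was 0.0781 with scaling by library size alone. Macrophage markers summed to 322 to 500 on HFr and 326 to 505 on chow, and 0 of their 6 tested genes had an unadjusted p under 0.05 in edgeR.

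**Figure D5:**
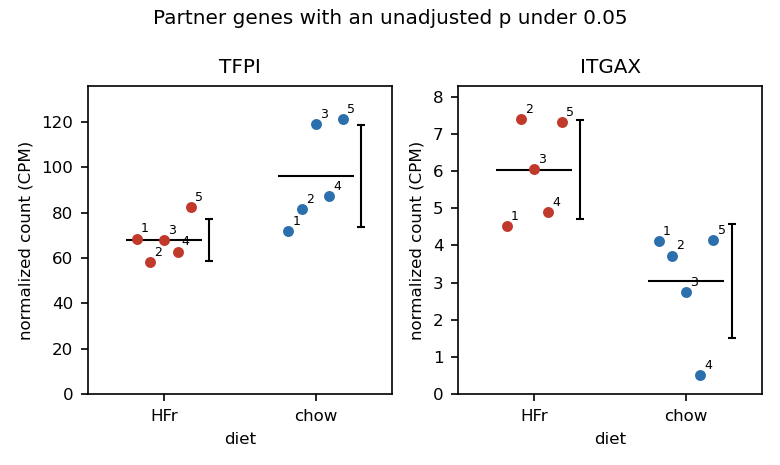
Normalized counts (vertical axis, CPM after TMM scaling) of TFPI and ITGAX in each animal, with replicate numbers, a line at the mean and a bar for the SD of 5 animals. For TFPI 4 of 5 HFr animals lie below all chow animals, and for ITGAX the diets do not overlap.

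The other partners named here did not pass the test. FCN2, encoding the lectin pathway initiator ficolin-2, was 206 ± 62.6 on HFr and 177 ± 69.2 on chow (SD, n = 5 each). VKORC1, the enzyme that recycles vitamin K for the 7 carboxylated members, was 137 ± 32.9 and 110 ± 34.2, with a log2 fold change of 0.31 (SE 0.25, edgeR p = 0.2311, exact permutation p = 0.2381). F2RL2, a thrombin receptor, was 8.79 ± 2.54 and 5.35 ± 3.52 (log2 fold change 0.68, SE 0.38, edgeR p = 0.0930, exact permutation p = 0.1111), and its edgeR p fell under 0.05 under 3 of 22 alternatives (0.00616 without chow 1, 0.0350 with limma in its place and 0.0219 with the replicate block). SERPINA10, VWF, VSIG4 and MCFD2, named as the highest of their groups by counts, had log2 fold changes of -0.01, -0.21, 0.31 and 0.18, with p above 0.05 in edgeR. CFHR5, a complement regulator, was 403 ± 115 on HFr and 421 ± 116 on chow (log2 fold change -0.06, SE 0.25), and the protease inhibitor gene SERPINE2 was 8.36 ± 2.27 and 8.36 ± 4.28 (log2 fold change -0.02, SE 0.33), both also with p above 0.05 in edgeR.

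Hepatocyte transcription factors and cytokine receptors that control these genes did not pass the test either. Of 14 listed, 8 were tested, 3 above 0 and 5 below, and 0 had an unadjusted p under 0.05 in edgeR. HNF4A, the nuclear receptor needed for expression of many clotting factors, was 196 ± 37.6 on HFr and 218 ± 53.6 on chow (SD, n = 5 each), with a log2 fold change of -0.15 (SE 0.21). Of 13 further acute phase genes 9 were tested, 7 above 0 and 2 below, again with 0 at an unadjusted p under 0.05, and ITIH4, the highest of them by counts, had a log2 fold change of 0.17 (SE 0.26).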

How the data were processed

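Liver RNA of 10 animals, 5 on HFr and 5 on chow, was sequenced as 100 base paired-end reads. The authors' reads were aligned to ChlSab1.1 and shared among Ensembl transcripts with the expectation-maximization step of Partek Flow, and the resulting estimated counts were deposited without normalization. A normalized signal was deposited too, for which the authors dropped transcripts without reads and applied TMM scaling (trimmed mean of M values). Per the labels, the processing notes name CASAVA 1.8, FastQC, STAR 2.5.3a and Partek. Groups were taken from the sample labels, and coordinates are those of the deposited table, counted from 1, with the listed stop excluded. Transcript lengths were not used, so levels were not compared between genes per kilobase, and ranks and shares between genes are of counts alone.

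Rounded estimated counts passed filterByExpr with a minimum count of 10 and a minimum total of 15, and the diets were compared with the quasi-likelihood test of edgeR 4.0.16 in R 4.3.3, with TMM scaling (factors 0.6066 to 1.488) and diet as the only term. Benjamini-Hochberg adjustment covered all 7948 transcripts. SE was taken as the size of the log2 fold change over the square root of F. Single values were compared by two-sided exact permutation on log2(normalized count + 1), and correlations by 100000 permutations with numpy 2.4.6 and scipy 1.17.1 (smallest possible p 1e-05). Alternatives included DESeq2 1.42.0 and limma 3.58.1. Members, lists and tests were chosen with earlier results of these data known. Members given by animal were the 10 with the smallest p and, in each role, the one with the highest mean count. FGA, FGG, CFD and A2M were added after their values were seen, as were the pairs and relations described. Partner and regulator genes were named for an unadjusted p under 0.05 or as the highest of their list by counts among the genes reported, and 2 genes of the partner lists are not reported here.

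The test was checked on simulated counts for the same 7948 transcripts, 5 libraries in each group. Among 100 transcripts given a log2 change of 1, the unadjusted p was under 0.05 in 90.0% and the adjusted p in 40.0%. For a log2 change of 2 these shares were 100% and 98.0% of 100, and for the 7748 unchanged transcripts the unadjusted share was 4.61%. The simulated transcripts varied independently of one another, without the shifts between animals that many members shared. Fitted member changes ran from -0.39 (C7) to 0.36 (F9), and changes that small were not simulated. The shares therefore do not tell how often such changes would pass.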

Additional observations from a re-analysis of the deposited data

Results flagged for a closer look

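In each diet the highest or lowest animal was compared with the other 4 by Dixon's test (critical ratio 0.71 for 5 animals), over 86 groups of values. It stood apart in 9 groups. The nominal rate of the test is about 1 in 20, or 4.3 of 86, for independent groups of normally distributed values. The groups share animals and the values were not put on a log scale, so no excess over that rate can be read from the 9. All values are normalized counts.

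HFr 5 was the animal apart in 3 of the 9. It stood at 1650 for CFB (other HFr animals 1160 to 1260), at 1050 for SERPING1 (562 to 648) and at 1200 for CLU (1080 to 1110). For CLU the gap was small beside the chow range of 543 to 1144.

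Chow 3 was apart in 3, at 6460 for FGA (other chow animals 1860 to 2240), 131 for C4BPA (38.9 to 60.2) and 128 for F13B (74.9 to 88.5). The log2 fold change of FGA was 0.03 with this animal and 0.53 without it.

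The other 3 came from 3 different animals. F12, the contact factor that activates prekallikrein, was 803 in HFr 4 (303 to 430), KLKB1, its substrate, was 284 in chow 4 (166 to 198), and CPB2 was 97.3 in chow 1 (189 to 223), the animal lowest for 21 of 41 members.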

How the results depend on the processing

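No member had an unadjusted p under 0.05 under any of 23 alternatives. Of 506 alternative values for 22 members, 462 kept their direction and 44 reversed, the latter in MBL2, VTN, FGA, FGG, PROC, C3, C9, CFD, HRG and A2M. Over all transcripts the count at an unadjusted p under 0.05 was 341, and it was 123 with scaling by library size alone and 756 of 16066 without the filter on low counts, where more transcripts were tested. Transcripts with an adjusted p under 0.05 numbered 2 with DESeq2 and 1 with library size alone.

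Leaving out each animal in turn gave 260 to 408 transcripts, 0 after adjustment, 16 to 33 members above 0, and a member median of -0.054 to 0.199. The difference in the mitochondrial percent, 0.071 points, ran from -5.097 to 4.613. Single fold changes ran from -0.056 to 0.181 for C3, -0.136 to 0.268 for C9, -0.002 to 0.471 for CFD, -0.064 to 0.136 for MBL2, -0.131 to 0.138 for VTN, -0.192 to 0.534 for FGA, -0.297 to 0.039 for PROC, -0.243 to 0.128 for HRG, -0.022 to 0.390 for A2M, -0.124 to 0.206 for SERPINA10, -0.208 to 0.057 for CFHR5 and -0.203 to 0.366 for SERPINE2.

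Reversed values under other settings were, for MBL2, 0.055 (library size alone), 0.009 (upper quartile), 0.008 (at least 10 counts in every animal), 0.053 (limma) and 0.010 (mitochondrial percent as covariate). VTN gave 0.008 (upper quartile), 0.002 (any count above 0), 0.005 (at least 10 counts) and 0.084 (limma). SERPINA10 and SERPINE2 gave 0.058 and 0.089 in limma, and FGA gave -0.004 with library size alone. Leaving out the 4 libraries under 1200000 nuclear counts, chosen after seeing the data, gave MBL2 0.131, VTN 0.115, FGA -0.250, FGG -0.163, PROC 0.000 and CFHR5 0.096, with 29 members above 0 and a TFPI p of 0.161 in edgeR. The cause of these reversals was not tested.

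Replicate numbers did not pair the animals. Correlations of same-numbered animals were -0.038, -0.005, -0.043, 0.099 and -0.287, and no animal correlated best with its own number. With the replicate block 271 transcripts and 0 members had an unadjusted p under 0.05, 31 members were above 0 with a median of 0.112, and MBL2, VTN, SERPINA10 and SERPINE2 gave 0.018, 0.045, 0.021 and 0.086.

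The smallest library held 864571 nuclear counts, and the 95% intervals are for the mean difference between the diets, estimated from 5 animals per diet.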
